A study of Mus musculus with 13 samples.

Results

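The Wnt ligands were examined as a family of 10 genes, Wnt3, Wnt4, Wnt5a, Wnt5b, Wnt6, Wnt7a, Wnt7b, Wnt10a, Wnt10b and Wnt11, chosen by symbol. The expression table listed 9 of the 10 among its 15213 genes, and Wnt7a was not analysed here. RNA sequencing compared 10 mammary tumors, taken from 6 females of the MMTV-tTA TetO-Tsg101 genotype (label MtTA Teto-TSG101wt), with the glands of 3 wild-type FVB females. In the transgenic mice the MMTV promoter drives the tetracycline transactivator in the mammary epithelium, in a mosaic manner, and without doxycycline this switches on an HA-tagged wild-type Tsg101 of mouse. Tumors 2 and 3 came from the same female, as did tumors 5 and 6 and tumors 8, 9 and 10, and the remaining tumors came from a female each. The age and reproductive stage of the animals are not given in the sources used here. The wild-type females carried neither transgene, so genotype and tumor state cannot be told apart.

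Wnt proteins are secreted lipid-modified signals. In the producing cell, the acyltransferase Porcn attaches a fatty acid to a conserved serine and the carrier Wls brings the ligand to the surface. At the receiving cell, the ligand binds a Frizzled receptor, either with Lrp5 or Lrp6, which stabilizes beta-catenin, or with receptors such as Ror2 and Ryk, which act without beta-catenin. In the mammary gland, Wnt4 is known as a ligand that luminal cells make in response to progesterone and that takes part in side branching, Wnt10b is expressed from the embryonic placode onwards, and Wnt5a is known to restrain ductal growth. Wnt10b and Wnt3 were also identified as integration targets of the mouse mammary tumor virus.

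The stretch around the acylated serine is shown because it is the part that all listed members share and that Porcn acts on. Each sequence is 10 codons of the coding strand, 5′ to 3′, read from GENCODE vM21 transcripts (build GRCm38), with the serine codon in capitals. Each lies within a single coding exon.

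Wnt3: aaatgccacgggttgTCCggcagctgcgag
Wnt4: aagtgtcacggggtgTCGggctcctgcgag
Wnt5a: aagtgtcatggagtgTCTggctcctgtagc
Wnt5b: aaatgtcacggagtcTCCgggtcctgcagc
Wnt6: aagtgccatgggcttTCGggttcctgcgct
Wnt7b: aagtgtcacggtgtgTCAggctcctgtacc
Wnt10a: aaatgccacggcaccTCAggcagctgccag
Wnt10b: aaatgccatggaacgTCAggcagctgccaa
Wnt11: aaatgccatggggtgTCTggctcctgctcc

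The codon of the acylated serine was spelled TCA in Wnt7b, Wnt10a and Wnt10b, TCC in Wnt3 and Wnt5b, TCG in Wnt4 and Wnt6, and TCT in Wnt5a and Wnt11. The stretches of Wnt10a and Wnt10b lie at chr1:74803153-74803182 on the plus strand and chr15:98772875-98772904 on the minus strand. Those of Wnt5a and Wnt5b lie at chr14:28522512-28522541 on the plus strand and chr6:119433797-119433826 on the minus strand. That of Wnt4 lies at chr4:137296342-137296371 on the plus strand. The longest run of identical coding bases was 29 between Wnt5a and Wnt5b, the longest of any pair of members, and 20 between Wnt10a and Wnt10b, where Wnt10a shared 22 with Wnt3 and with Wnt4. In the genome, Wnt6 and Wnt10a are neighbours on chromosome 1, 6193 bases apart and on the same strand.

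Levels are given as normalized cpm, reads scaled to the effective library size, as deposited. The libraries held 6176269 to 16835397 reads in the tumors and 11672487 to 23889042 in the glands, so that 3 reads, the most that a count of 0 allows, correspond to 0.141 to 0.683 normalized cpm in the tumors and 0.128 to 0.366 in the glands, by counting error only. Tumor 9 was the library with the largest share of ribosomal Rn45s reads, 27.4%. Tsg101 itself ranged from 49.9 to 101 in the tumors and from 45.6 to 61.0 in the glands, and 6 of 10 tumors lay above all glands. The 13 general epithelial genes summed to 2302 to 3284 in the tumors and 1534 to 3236 in the glands, with 0 of 13 called (largest change Rab25, a log2 fold change of 0.86). These sums overlapped, but the median log2 fold change of the 13 was 0.22. Rab25 and Epcam (0.65) were higher in every tumor than in every gland. Other marker lists are given from the fit of all genes, which called 10.5% of genes higher and 10.1% lower, with sums over the tumors first. All 8 adipocyte markers were lower in the tumors (sum 39.1 to 416 against 3512 to 11047, largest fall Adipoq), as were 4 of 8 fibroblast markers (420 to 1170 against 3943 to 4494, Col3a1) and 5 of 6 endothelial markers (44.6 to 107 against 185 to 517, Cdh5). Gland 3 was the highest gland in the adipocyte sum (the others were at 3512 and 3954) and the lowest in the endothelial sum (the others were at 514 and 517). Of the squamous markers, 9 of 10 were higher in the tumors (596 to 4044 against 16.9 to 41.4, largest rise Klk7), as were 9 of 10 hair follicle markers (119 to 2953 against 9.63 to 14.9, Tchh). Ivl, Sprr1b and Klk7 of the squamous list and Shh, Hoxc13, Foxn1 and Krt35 of the hair follicle list were at 0 in all 3 glands. The other genes of these lists, such as Krt10 and Tchh, were not. Of 10 basal epithelial markers, 4 were higher, led by the keratin gene Krt17, and 6 genes of contraction, such as Acta2, were lower (1013 to 4421 against 1306 to 2762). Lymphocyte markers were lower in 7 of 8 genes (11.5 to 96.7 against 28.3 to 525, where gland 2 stood apart at 28.3 and the other glands were at 407 and 525), while Ms4a1, with the largest difference, did not pass. Of the macrophage markers, 1 of 5 was higher, Cd68 (243 to 489 against 226 to 240). Of the skeletal muscle markers 0 of 5 were called (2.12 to 1900 against 3.05 to 20.6, largest difference in Tnnt3), and tumor 4 was the upper end. Of the 10 luminal markers 0 were higher and 2 lower, with a median log2 fold change of -0.36 (sums 793 to 23835 against 58521 to 66018). The milk protein gene Csn2, the luminal marker with the largest change, had a gland level of 59846 ± 3440 (SD, n = 3) and a tumor level of 4903 ± 6721 (SD, n = 10). Csn2 alone thus made up most of the gland sums, which say little about the other luminal markers. The part of these differences in the results below was not tested, and in bulk tissue fewer cells of a type and less RNA per cell cannot be told apart.

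Most Wnt ligands were higher in the tumors. Wnt10a, Wnt7b, Wnt10b, Wnt5a and Wnt6 rose between 4-fold and 14-fold on the log2(normalized cpm + 1) scale, Wnt5b was higher by less than 2-fold and so was not called, and Wnt4 was the only member that fell. Of the 7 members past the filter on low values, 5 were called higher and 1 lower, where called means an adjusted p below 0.05 (limma, Benjamini-Hochberg over all genes) and more than 2-fold. Of all 11795 genes past that filter, 10.2% were called higher and 6.99% lower. Wnt6, Wnt7b, Wnt10a and Wnt10b were below the filter's limit of 5 in every gland and passed it only through the tumors, so the count is a description. Wnt3 and Wnt11 did not pass the filter (genes at 5 or less in more than 6 of 13 libraries were left out), and their values come from the fit of all 15213 genes, in which 6 of the 9 members were called higher and 1 lower (10.5% and 10.1% of all genes). In 7 members every tumor lay above every gland, which held for 11.4% of all genes, and 10.3% lay below in the same manner. The median log2 fold change was 2.01 over the 9 members and 0.01 over all genes.

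**Figure D1:**
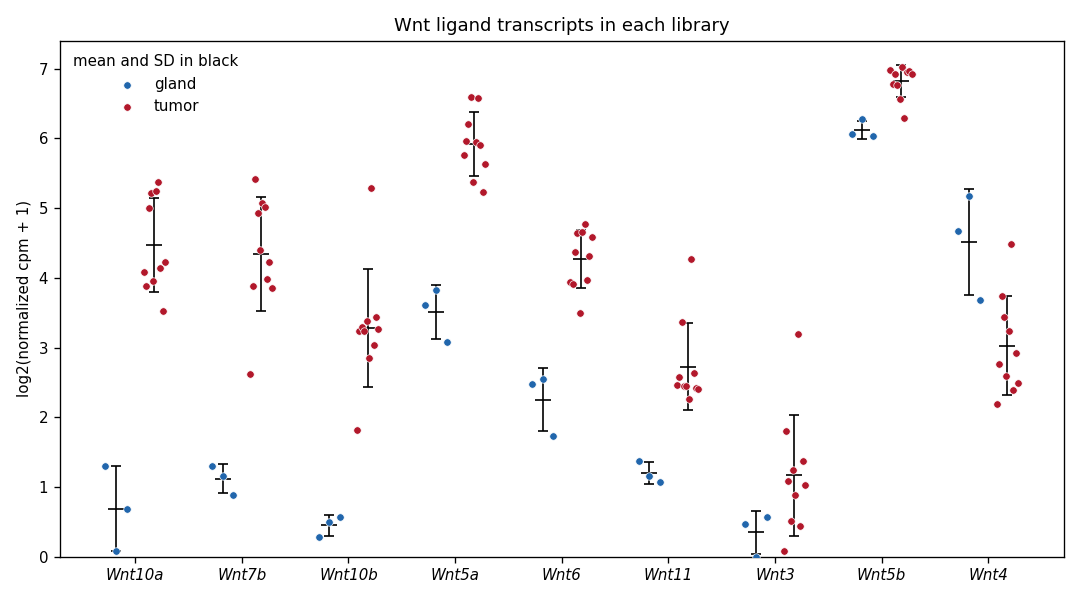
Levels of the 9 listed Wnt ligands as log2(normalized cpm + 1) in each of 3 glands (blue) and 10 tumors (red), with mean and SD in black and genes ordered by fold change. Tumor and gland points do not overlap for Wnt10a, Wnt7b, Wnt10b, Wnt5a, Wnt6, Wnt11 and Wnt5b, while Wnt4 is the member with lower tumor points.

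The ligands of the Wnt10 pair were at low levels in the glands. Wnt10a, a ligand known for its part in hair follicle and tooth development, was at 1.46, 0.0516 and 0.610 normalized cpm in the 3 glands, which rests on 34, 1 and 5 reads. In the tumors it ranged from 10.5 to 40.7 with a median of 17.2, so that the lowest tumor lay above the highest gland by a wide margin. The tumor mean of 23.4 ± 11.5 (SD, n = 10) was 33.2 times the gland mean of 0.706 ± 0.707 (SD, n = 3), and the fitted log2 fold change was 3.78 (SE 0.400, adjusted p = 7.7e-06, limma). The fitted value is smaller than the ratio of means because the added 1 holds down changes of genes near 0, and edgeR on the recovered reads gave 4.98. Wnt10b was at 0.214, 0.413 and 0.488 in the glands (5, 8 and 4 reads) and from 2.52 to 38.0 in the tumors, with a median of 8.50. It rose in all tumors (log2 fold change 2.83, SE 0.462, adjusted p = 3.34e-04), but tumor 7, at 38.0, stood at 3.88 times the next tumor. The ratio of means was 28.9 for Wnt10b, and its log2 fold change on recovered reads was 4.90 with edgeR and 4.45 with DESeq2, above the 4.17 and 4.20 of Wnt7b, so the order of these genes depended on the scale. Without tumor 7 the tumor mean went from 10.7 ± 9.80 (SD, n = 10) to 7.70 ± 2.23 (SD, n = 9) and the log2 fold change to 2.61.

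Wnt7b, a ligand that in many epithelia signals through beta-catenin, was at 1.46, 1.24 and 0.853 in the glands and from 5.16 to 41.9 in the tumors, with a median of 18.9. The gland values rest on 34, 24 and 7 reads. The groups did not overlap, and the log2 fold change was 3.23 (SE 0.445, adjusted p = 8.2e-05). Wnt7b shares 560 exon bases with AU022754, a gene on the other strand that is also in the table. AU022754 ranged from 1.98 to 7.04 in the tumors and from 0 to 0.214 in the glands. Whether reads were counted by strand is not given in the sources used here, so reads in the shared stretch cannot be assigned to either gene here.

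Wnt6, the neighbour of Wnt10a, was at 4.58, 4.85 and 2.32 in the glands and from 10.3 to 26.2 in the tumors, with a median of 19.3. Every tumor was higher than every gland (log2 fold change 2.01, SE 0.270, adjusted p = 6.4e-05).

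The Wnt5 pair, the ligands best known for signaling without beta-catenin, moved in the same direction by different amounts. Wnt5a was at 11.2, 13.2 and 7.44 in the glands and from 36.6 to 96.1 in the tumors, with a median of 60.0. It rose with a log2 fold change of 2.42 (SE 0.275, adjusted p = 1.5e-05), and the highest gland lay well below the lowest tumor. Wnt5b was at 66.0, 76.4 and 64.6 in the glands and from 77.7 to 130.0 in the tumors, with a median of 121. Its log2 fold change of 0.70 (SE 0.164) had an adjusted p of 0.00528 but stayed under 2-fold, and the lowest tumor, tumor 7, lay only just above the highest gland. Wnt5b depended on the scaling: it was 1.02 and called higher with plain cpm, and 0.37 with an adjusted p of 0.263 when libraries were scaled to epithelial genes. The ratio of Wnt5a to Wnt5b per exon length was 0.0577, 0.0587 and 0.0390 in the glands and 0.100 to 0.414 in the tumors, without overlap. Wnt5a shares 358 exon bases with the antisense gene Gm2670, which the table does not list.

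Wnt4 fell in the tumors. It was at 24.4, 35.2 and 11.8 in the glands and from 3.54 to 21.4 in the tumors, with a median of 6.19. The groups overlapped: 8 of 10 tumors lay below all 3 glands, and tumors 3 (12.4) and 7 (21.4) lay above gland 3. The log2 fold change was -1.49 (SE 0.431, adjusted p = 0.0183). This call was lost without gland 1 (adjusted p = 0.0828), without gland 2 (0.127), with tumors of the same mouse summed (0.0690), without the mouse of 3 tumors (0.0678) and with plain cpm (0.0699), while the direction was negative in each of these. Of the 10 luminal markers, Elf5 (log2 fold change -1.68) and Csn2 (-4.96) were also called lower, and the rest were not called. The part of luminal transcripts in the Wnt4 difference was not tested.

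The remaining members were at low levels. Wnt11, a ligand of signaling without beta-catenin, was at 1.58, 1.24 and 1.10 in the glands and from 3.78 to 18.2 in the tumors, with a median of 4.48. It was higher in every tumor (log2 fold change 1.53, SE 0.349, adjusted p = 0.00388 in the fit of all genes), with a log2 fold change of 1.36 without tumor 7. The value depended on the scale: 2.26 with edgeR and 2.29 with DESeq2 on recovered reads, and 0.78 with a pseudocount of 5. Wnt11 shares 364 exon bases with the pseudogene Gm8398 on the other strand. Wnt3, a ligand that signals through beta-catenin, was at 0.385, 0 and 0.488 in the glands (9, 0 and 4 reads) and from 0.0600 to 8.18 in the tumors, with a median of 1.08. Only 7 of 10 tumors lay above all glands, and the log2 fold change of 0.82 (SE 0.476, adjusted p = 0.214) did not pass the test. On recovered reads it was 2.64 with edgeR (adjusted p = 0.120) and 2.65 with DESeq2, which called it (adjusted p = 0.0420).

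**Figure D2:**
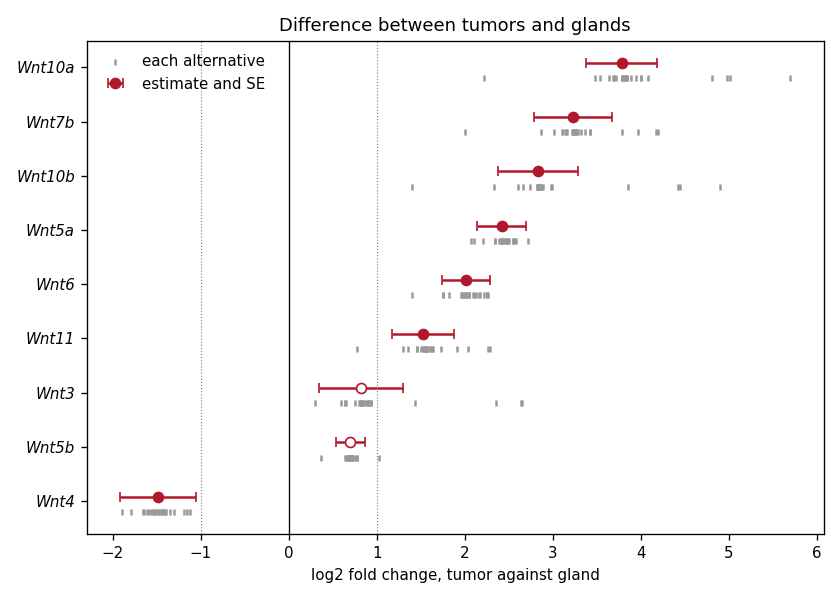
Log2 fold change of tumors against glands for each Wnt ligand from the fit of all genes, with SE (red; filled where called, open where not), and the value under each alternative processing as grey ticks below it. The order runs from Wnt10a at 3.78 to Wnt4 at -1.49, no tick crosses 0, and the dotted lines mark 2-fold.

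Per exon length, which allows different genes to be set side by side, Wnt5b was the most abundant listed Wnt ligand in all 13 libraries. The table also lists 3 further Wnt ligands, Wnt2, Wnt2b and Wnt9a, and the summed level of the 12 was 82.5 ± 13.2 normalized cpm per kb (SD, n = 10; 62.5 to 104) in the tumors and 37.8 ± 5.53 (SD, n = 3; 32.6 to 43.6) in the glands. Wnt5b made up 53.0% of this sum in the tumors on average (28.2% to 66.1%, with tumor 7 lowest and the next at 44.2%) and 69.3% in the glands (66.1% to 74.7%). Wnt4 came second in all 3 glands, with 8.65% to 19.3% of the sum, but contributed 1.17% to 4.92% in the tumors, where tumor 7 was highest and the next was at 3.11%. Second place in the tumors went to Wnt10a, Wnt5a or Wnt6. Their levels per kb were 9.49 ± 4.64, 7.98 ± 2.60 and 8.65 ± 2.46 (SD, n = 10 each), and their order changed from tumor to tumor. Wnt7b at 4.51 ± 2.31 and Wnt10b at 3.15 ± 2.88 overlapped over the tumors, as did Wnt4 at 1.95 ± 1.29 and Wnt11 at 1.54 ± 1.08. Within each tumor, however, Wnt7b was above Wnt10b in all but tumor 7. Wnt4 was above Wnt11 in all but tumors 1 and 8. Exon lengths are the union of annotated exons, and which transcripts were made was not measured.

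**Figure D3:**
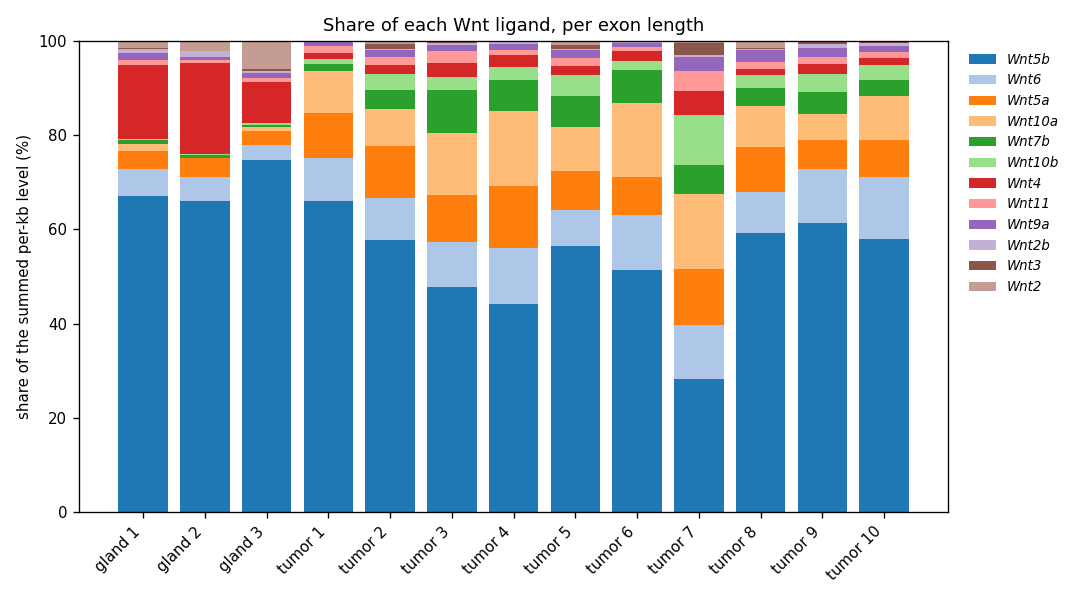
Share of each listed Wnt ligand in the summed level per kb of exon, in percent, for 3 glands and 10 tumors. Wnt5b takes the largest share of every bar and Wnt4 (red) the second largest share of the 3 gland bars, while Wnt10a, Wnt5a and Wnt6 widen in the tumors.

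Of the further ligands, none passed the filter on low values. Wnt9a rose from 1.28 ± 0.443 (SD, n = 3) to 4.40 ± 2.34 (SD, n = 10) (log2 fold change 1.16, adjusted p = 0.0117 in the fit of all genes). Wnt2, which in many tissues is made by stromal cells, fell from 2.60 ± 1.62 to 0.764 ± 0.862 (log2 fold change -1.07, adjusted p = 0.0478). Wnt2b had a log2 fold change of 0.01.

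By the coefficient of variation among the 9 members, tumors differed from each other most in Wnt3, Wnt10b, Wnt11 and Wnt4. Tumor 7 had the highest level of 6 of the 9 members (Wnt3, Wnt4, Wnt6, Wnt10a, Wnt10b and Wnt11) and the lowest of Wnt5b. The coefficient of variation over tumors fell from 91.3% to 28.9% for Wnt10b, from 70.3% to 33.0% for Wnt11 and from 66.1% to 43.8% for Wnt4 without it, while that of Wnt7b was 51.3% with it and 54.6% without. Tumor 7 also had the highest summed squamous markers, 4044 against at most 1469 in the other tumors. Its hair follicle markers summed to 2953 against at most 1596, and its basal epithelial markers to 4421 against at most 2533. Its general epithelial genes summed to 2631, within the range of the others. The part of these markers in its Wnt levels was not tested. Leaving it out changed no member's call.

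**Figure D4:**
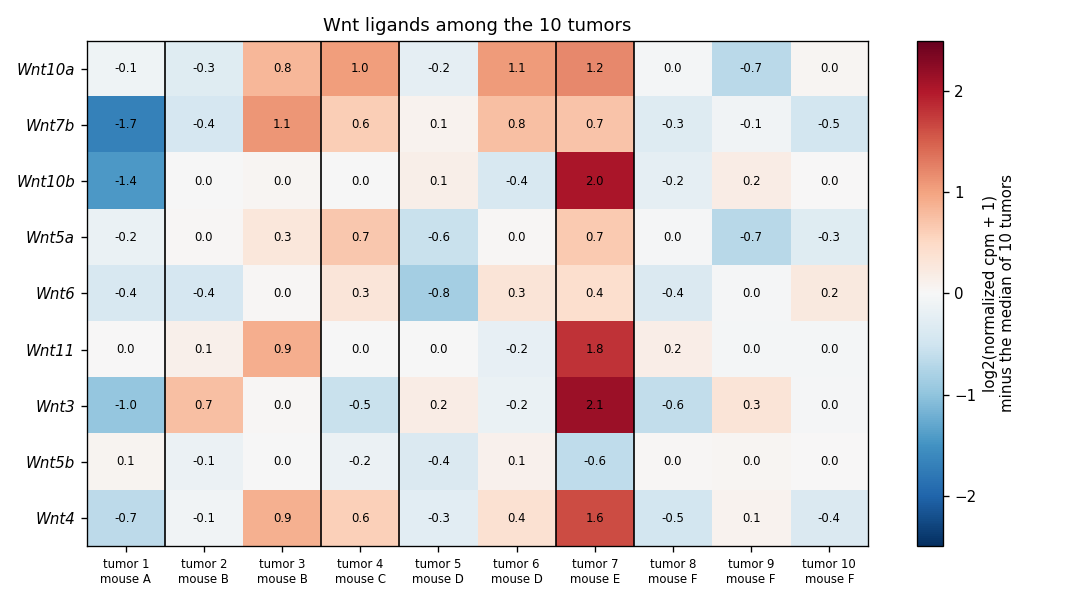
Deviation of each tumor from the median of the 10 tumors in log2(normalized cpm + 1), with the value in each cell, red for above and blue for below, and black lines between mice (lettered A to F). Tumor 7 of mouse E stands out in Wnt10b, Wnt3, Wnt11 and Wnt4 and is the lowest in Wnt5b.

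Tumors of the same mouse could differ as well. Tumors 2 and 3 had 13.8 and 41.9 of Wnt7b (3.03-fold) and 13.8 and 31.1 of Wnt10a (2.25-fold), but 8.39 and 8.77 of Wnt10b. Tumors 5 and 6 had 14.5 and 36.9 of Wnt10a (2.55-fold) and 10.3 and 24.4 of Wnt6 (2.37-fold). Tumors 8, 9 and 10 were within 1.03-fold of each other in Wnt5b and within 1.70-fold in Wnt10a. With tumors of the same mouse summed, 6 mice against 3, the 5 higher calls had a log2 fold change of at least 2.09. Their adjusted p (limma) then ran from 4.8e-05 for Wnt10a to 0.0048 for Wnt10b, larger than with tumors taken singly.

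Porcn, which acylates the serine shown above, averaged 25.4 ± 10.3 (SD, n = 10) over the tumors against 7.51 ± 0.927 (SD, n = 3) over the glands (log2 fold change 1.54, SE 0.304, adjusted p = 0.00149), and every tumor lay above every gland. Wls had a log2 fold change of 0.66 and did not pass (adjusted p = 0.120). Of the 8 genes that make and release Wnt ligands, Porcn was the 1 called higher and 0 were called lower, a share near the 10.2% of all genes called higher.

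Counts for the lists of pathway genes that follow are from the fit of all genes (10.5% called higher and 10.1% lower), since the filter keeps genes that are high in the tumors alone and leaves out those that are high in the glands alone. Of 12 Frizzled and Lrp receptor genes, 5 were called higher and 2 lower. Fzd10 rose most, from 1.28 ± 0.821 to 11.5 ± 9.45 (log2 fold change 2.27, SE 0.486, adjusted p = 0.00273). Fzd1 was close behind (2.22, SE 0.259), and the highest tumor for Fzd10 was tumor 7, at 36.7 with the next at 13.9. Fzd4, left out by the filter, fell most, from 23.8 ± 2.33 to 1.94 ± 0.991 (log2 fold change -3.13, adjusted p = 6.9e-07 in the fit of all genes). Of the receptors and membrane proteins of signaling without beta-catenin, 6 of 10 were called higher and 0 lower, with the largest rise in the cadherin Celsr1 (log2 fold change 2.87, adjusted p = 3.76e-04). Of 8 listed secreted antagonists, 7 were called higher and 0 lower, with Sfrp4 at a log2 fold change of 0.28 the exception. Notum, an extracellular enzyme that removes the fatty acid from Wnt ligands, rose from 0.365 ± 0.315 to 27.6 ± 14.3 (log2 fold change 4.25, adjusted p = 2.9e-06). Median log2 fold changes over the listed genes were 0.59 for the receptors, 1.02 for the proteins of signaling without beta-catenin and 1.76 for the antagonists, against 0.01 over all genes.

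Genes that respond to beta-catenin signaling in many tissues were mostly higher, with 7 of 11 called higher, 0 lower and a median log2 fold change of 1.62. Notum is counted both here and among the antagonists. Lgr5, a receptor for R-spondins and itself such a target, had the largest rise, from 0.362 ± 0.270 to 87.3 ± 34.4 (log2 fold change 5.94, adjusted p = 1.2e-08). Rspo1, an R-spondin that strengthens Wnt signaling, went the other way, from 238 ± 96.5 to 3.56 ± 2.24 (log2 fold change -5.82, adjusted p = 9.6e-07 in the fit of all genes). Among 15 genes of the cytoplasmic and nuclear part of the pathway, 0 were called higher and 2 lower. The larger fall was in the transcription factor gene Lef1 (log2 fold change -2.38, adjusted p = 0.0228 in the fit of all genes), which was at 43.3, 0.774 and 15.6 in the glands. Gland 2 thus lay within the range of the tumors for Lef1 and was also the gland with low lymphocyte markers (28.3 against 407 and 525), whose part in the Lef1 difference was not tested.

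For 6 called members the 3 genes with the most similar levels over the 10 tumors were listed by Pearson's r of log2 values. They were picked as the highest among the 11795 genes past the filter, so their r is high in part by selection. The list is a description that rests on 10 libraries sharing mice and depth. Wnt10a was most like Osbpl5 (0.983), the basal keratin gene Krt5 (0.963) and Ctr9 (0.957), and Wnt10b most like Pla2g4e (0.987), Sox21 (0.962) and Tgfa (0.960). Wnt4 was most like Bmpr2 (0.980), Vangl2 (0.976) and Ndufa4l2 (0.975), and Wnt5a most like Gabpb2 (0.972), the immediate early gene Egr1 (0.969) and Dpp8 (0.959). Wnt7b was most like Map7d1 (0.940), Hdac4 (0.936) and Dnaaf5 (0.935), and Wnt6 most like Mtss1 (0.859), Ptk7 (0.852) and Fat2 (0.850). Without tumor 7 the values of Wnt10a were 0.978, 0.965 and 0.950, and those of Wnt10b were 0.965, 0.898 and 0.879.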

How the data were processed

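Total RNA of 10 tumors and 3 glands was sequenced as paired ends, aligned to mm10 with Rsubread and counted per gene with featureCounts. The signal values deposited by the authors are read counts scaled with edgeR by effective library sizes, and 100% of them were whole multiples of 1 read (tolerance 0.02), from which read counts were recovered. The labels name 2 sequencing sites without assigning libraries, so site and group cannot be told apart. Values were tested as log2(value + 1) with limma 3.58.1 (R 4.3.3, trend), because they were not raw counts as the design had allowed for, with the filter and thresholds of the methods. Numbers in the report come from 11795 genes past the filter unless the fit of all 15213 genes is named. Alternatives used edgeR 4.0.16 and DESeq2 1.42.0, and the test was checked on simulated data. Tumors were taken as separate samples although some share a mouse, and p-values measure the spread between these samples, not between mice.

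Loci, exon lengths and coding sequence came from GENCODE vM21 by Entrez ID, in place of the RefSeq lengths that had been planned. Named genes were the members, the other listed Wnt ligands, Porcn and Wls, the called gene with the largest rise and fall of each Wnt pathway list, the marker of each cell type list with the largest change, and the 3 genes most correlated with each called member. The genes most like Wnt11 are not reported here. Genes named beyond that rule were chosen after their values were seen. The members and lists were chosen with earlier results of these data known.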

Additional observations from a re-analysis of the deposited data

Results flagged for a closer look

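Of 12 Wnt ligand genes checked for a tumor far from the other 9, 5 had one, where the gap to the nearest tumor as a share of the whole range exceeded the 95% limit of 0.466. That limit gives about 1 flag in 20 by chance for normally distributed values, which was not checked for these unlogged levels. Tumor 7 was the high sample for Wnt10b (0.795), Wnt3 (0.702), Wnt11 (0.616) and Wnt4 (0.506). Tumor 8 was the high sample for Wnt2 (0.495), at 2.71 normalized cpm. Since 4 of the 5 concern the same library, they are not separate observations.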

How the results depend on the processing

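The count of members called was 6 of 7. It was 7 of 9 with no filter and with the filter on the mean, and 5 or 6 of 7 in every other alternative except the replicate block, which left 3 (Wnt5a, Wnt10a and Wnt10b) and took the calls over all genes from 2029 to 544. The replicate numbers are names only and do not pair a tumor with a gland: same-numbered deviations correlated at -0.58, 0.04 and -0.66, and the glands correlated best with tumors 3, 6 and 9. The count was 5 to 6 when single libraries were left out. No member changed direction in any alternative. Plain cpm gave 6 calls, all higher, in place of 5 higher and 1 lower, and it moved the median of all genes to 0.33, while scaling to epithelial genes moved it to -0.31. Wnt4 lost its call in 6 alternatives, the replicate block among them (adjusted p = 0.273). Wnt11 fell below 2-fold with a pseudocount of 5 (log2 fold change 0.78) and did not pass in the replicate block (adjusted p = 0.0692). Wnt3 was called by DESeq2 (2.65, adjusted p = 0.0420) but not by edgeR (2.64, adjusted p = 0.120). The cause of these changes was not tested. Gland values of Wnt3, Wnt7b, Wnt10a, Wnt10b and Wnt11 rest on 0 to 37 reads, which limits the precision of their fold changes.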
